A study of Homo sapiens with 12 samples.

Results

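SOX21-/- cells were compared with wild-type cells on day 8 of neural differentiation, for the genes that mark the regions of the forebrain and its neighbours. The members were the 4 day 8 libraries, of 12 in the series: S13 and S23 carried the SOX21-/- genotype label and WT1 and WT2 the wild-type label. All 12 came from H9, an established human embryonic stem cell line, taken at days 0, 4 and 8, with 2 libraries for each genotype and day. The day 0 libraries are labelled embryonic stem cells, and those of days 4 and 8 neural progenitors. The labels give no agent, medium or age of culture beyond the day, no description of the SOX21 lesion, and do not say whether S13 and S23 are separate clones or cultures, and any p-value below reflects the spread among these few libraries alone, which may be technical.

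The anterior neural plate is divided along its length into territories that each switch on their own transcription factors. The telencephalon and eye field form at the rostral end, under FGF8 from the anterior neural ridge and under secreted WNT antagonists, and the diencephalon, midbrain and hindbrain follow behind. WNT signalling promotes the caudal fates, and the cortical hem, at the dorsal midline of the telencephalon, is a later source of WNT and BMP ligands. SOX21, a transcription factor of the SOX family with repressor activity, is made in neural progenitors.

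Expression was given in TPM, which states each transcript's share of a library after correction for its length. The values below were rescaled so that the nuclear protein-coding genes of each library add up to 1000000. TPM does not hold the read number, and library depth is therefore unknown. Nuclear protein-coding genes held 86.4% and 84.9% of the TPM in the SOX21-/- libraries of day 8, against 85.9% and 83.5% in wild-type ones, and mitochondrial genes held 7.41% and 7.95% in SOX21-/- libraries, against 7.80% and 8.24% in wild-type ones. Genes are not independent replicates; across them Pearson's r was 0.983 between S13 and S23 and 0.984 between WT1 and WT2, and 0.961 to 0.971 between libraries of different genotype. Fold changes are differences of mean log2(TPM + 1), a scale that understates the change of low genes, and adjusted p-values are from limma over the 14253 genes tested. A gene is said to have risen, fallen or been called where its adjusted p was under 0.05. In bulk RNA, fewer cells of a type cannot be told apart from less RNA per cell.

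SOX21, the targeted gene (chromosome 13, 94709622 to 94712399, minus strand, GRCh38), was at 293 TPM in S13 and 82.3 TPM in S23, against 150 TPM in WT1 and 120 TPM in WT2. The 2 genotypes overlapped, with 1 library labelled SOX21-/- above both wild-type libraries and 1 below them (log2 fold change 0.21, SE 0.45, limma adjusted p = 0.830). The mRNA level thus did not separate the genotype labels, and TPM summed per gene cannot show a small lesion. Directions below are those of the libraries labelled SOX21-/-. The progenitor label was met in all 4 libraries: SOX2, a neural stem cell factor, was at 433 TPM in S13 and 514 TPM in S23 and 482 TPM in WT1 and 462 TPM in WT2, and OTX2, which marks forebrain and midbrain, at 310 and 325 TPM in SOX21-/- against 334 and 304 TPM in wild type. The pluripotency genes NANOG and POU5F1 were at or below 1.66 TPM in the SOX21-/- libraries and at or below 1.04 TPM in the wild-type ones.

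Of all genes tested, 741 were called at day 8, which is 5.2%, and 148 to 357 when 1 of the 4 day 8 libraries was left out. They divided into 376 higher (2.64%) and 365 lower (2.56%) in SOX21-/- cells, and the median log2 fold change of all genes was -0.01. Of 169 regional genes looked up, 86 had at least 1 TPM in at least 2 libraries of days 4 and 8 and were tested, and 83 were too low. Among the 86, 22 rose and 7 fell, with a median log2 fold change of 0.28. The 29 are 33.7% of the regional genes tested, against 5.2% of all genes, and these genes were listed with earlier results of the data known. Of the 86, 41 were higher and 23 lower in both SOX21-/- libraries than in both wild-type libraries. Over all genes, both SOX21-/- libraries were higher than both wild-type libraries for 24.8% and lower for 27.4%. The genotypes lay apart in this way in all 741 genes called, so a lack of overlap in a called gene is no further evidence. Of the 29, ALDH1A1, BARHL1 and VAX1 passed the filter on low values only through the day 8 libraries of the genotype in which they were higher, so that a difference was built into their selection. The genes called belonged to the telencephalon, eye field, cortical hem and diencephalon lists, apart from SFRP1 of the rostral signalling centre, and LMX1A of the hem was also in the midbrain list. Of the ventral forebrain list 22 of 26 genes, and of the hindbrain and spinal cord list 23 of 27, were under 1 TPM in all 4 libraries. The counts for each list below stand beside the 5.2% called over all genes, and no list was tested as a set.

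**Figure D1:**
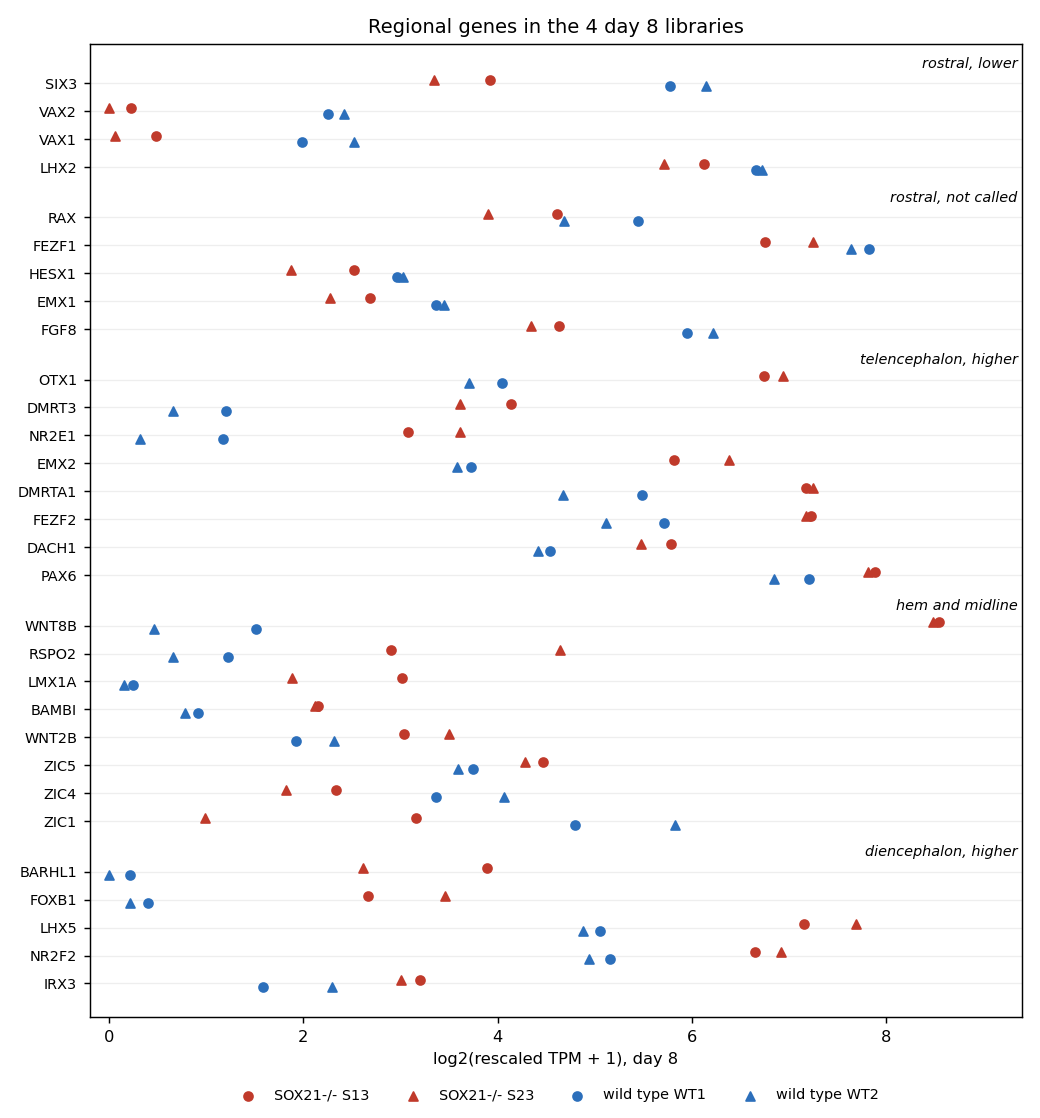
Level of 30 regional genes in each day 8 library, on the log2(rescaled TPM + 1) axis; red symbols are SOX21-/- libraries and blue symbols wild-type libraries, each symbol being 1 library. Red and blue symbols lie apart in every row, as they did for every gene called. SIX3, VAX1, VAX2, LHX2, ZIC1 and ZIC4 are lower in SOX21-/- cells, among others. WNT8B is the farthest apart, at 372 and 357 TPM in SOX21-/- against 1.86 and 0.380 TPM in wild type.

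WNT8B, a secreted WNT ligand made in the caudal forebrain and, later, at the cortical hem, showed the greatest rise among the genes of the regional lists. It was at 372 TPM in S13 and 357 TPM in S23, against 1.86 TPM in WT1 and 0.380 TPM in WT2 (log2 fold change 7.52, SE 0.51, limma adjusted p = 0.00016). Among all WNT ligands, summed per library, it made up 64.3% and 63.2% of the ligand TPM in SOX21-/- libraries, against 0.874% and 0.183% in wild-type libraries. The summed ligand TPM was 579 and 564 in SOX21-/- libraries, against 213 and 207 in wild-type libraries, so the genotypes lay apart on this measure too. WNT5B, at 117 and 129 TPM in SOX21-/- and 143 and 141 TPM in wild type, was the ligand with the highest level in wild type.

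The promoters of WNT8B and EMX2 are shown because both genes rose and because, of 21 genes matched in the RefSeq promoter table (GRCh38.p14) out of 26 looked up, these were the ones holding the letters TAATTA, the core bound by many homeobox factors. Each window runs from 250 bases before to 50 after the annotated start, on the plus strand, at chr10:100462759-100463058 for WNT8B and chr10:117542496-117542795 for EMX2. Capitals mark TAATTA and the letters ACAAAG or ACAAT, which SOX factors favour, read on either strand (CTTTGT and ATTGT on the opposite strand).
WNT8B: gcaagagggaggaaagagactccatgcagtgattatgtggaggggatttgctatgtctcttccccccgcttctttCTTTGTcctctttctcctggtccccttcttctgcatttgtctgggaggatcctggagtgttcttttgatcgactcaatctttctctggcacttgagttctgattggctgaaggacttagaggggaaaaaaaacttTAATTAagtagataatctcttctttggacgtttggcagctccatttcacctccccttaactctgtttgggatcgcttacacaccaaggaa
EMX2: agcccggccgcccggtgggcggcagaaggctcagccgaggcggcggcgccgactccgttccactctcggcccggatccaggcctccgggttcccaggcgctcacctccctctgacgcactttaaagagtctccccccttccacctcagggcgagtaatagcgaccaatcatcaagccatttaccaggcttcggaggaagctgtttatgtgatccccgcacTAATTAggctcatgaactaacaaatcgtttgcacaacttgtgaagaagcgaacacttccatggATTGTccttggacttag
The WNT8B window held CTTTGT and TAATTA once each, and the EMX2 window ATTGT and TAATTA once each, with no overlap between matches. OTX1, which also rose, held none of these letters in its window. Among 16063 promoters of the 10927 tested genes matched, 12.4% held ACAAAG, 18.3% ACAAT and 2.44% TAATTA on either strand. For genes that rose these shares were 17.3%, 20.6% and 2.47% (485 promoters of 274 genes). For genes that fell they were 15.1%, 17.7% and 2.88% (451 promoters of 274 genes). Over all promoters of the RefSeq table, tested or not, they were 16.1%, 27.4% and 4.84%. A gene can have several promoters, and differences between these shares were not tested. The matches describe the letters of these windows only. SIX3, LHX5, SOX14, VAX2 and FEZF2 were looked up and not matched.

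In the telencephalon and cortex list, 21 of 24 genes were tested, 9 rose and 2 fell, with a median log2 fold change of 0.83. OTX1, a homeobox gene of the early forebrain and midbrain, was at 106 TPM in S13 and 121 TPM in S23, against 15.4 TPM in WT1 and 12 TPM in WT2 (log2 fold change 2.97, SE 0.33, limma adjusted p = 0.00203). EMX2, which patterns the medial and caudal cortex in mice, was at 55.2 and 82.0 TPM in SOX21-/- libraries, against 12.2 and 11 TPM in wild-type libraries (2.44, SE 0.49, adjusted p = 0.0279). DMRT3 and DMRTA1, doublesex-related factors of the dorsal and medial telencephalon, rose as well. DMRT3 was at 16.5 and 11.2 TPM in SOX21-/- against 1.31 and 0.578 TPM in wild type (2.94, SE 0.31, adjusted p = 0.00166). DMRTA1 was at 143 and 151 TPM in SOX21-/- against 43.7 and 24.5 TPM in wild type (2.13, SE 0.23, adjusted p = 0.00203). In all 4 of these genes the lower SOX21-/- library was above the higher wild-type library by a margin wider than the gap within either genotype.

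Rises in the telencephalon list also took in rostral and general genes. FEZF2, a zinc finger factor of the rostral forebrain that later specifies deep-layer cortical neurons, was at 148 TPM in S13 and 143 TPM in S23, against 51.5 TPM in WT1 and 33.6 TPM in WT2 (log2 fold change 1.78, SE 0.35, limma adjusted p = 0.0269). NR2E1, a nuclear receptor that keeps neural stem cells proliferating, was at 7.44 and 11.2 TPM in SOX21-/- against 1.25 and 0.247 TPM in wild type (2.60, SE 0.34, adjusted p = 0.00483). DACH1 rose by less, with 54.1 and 43.4 TPM in SOX21-/- against 22.3 and 20.4 TPM in wild type (1.15, SE 0.15, adjusted p = 0.00448). PAX6, which is needed for cortex and eye, was at 236 and 224 TPM in SOX21-/- and 147 and 114 TPM in wild type and lay just inside the threshold (0.83, SE 0.20, adjusted p = 0.0498). The paralogs of 2 of these genes were not called: EMX1 was at 5.43 and 3.84 TPM in SOX21-/- and 9.31 and 9.89 TPM in wild type (-0.93, SE 0.24, adjusted p = 0.0669), and FEZF1 at 106 and 151 TPM in SOX21-/- against 225 and 197 TPM in wild type (-0.73, SE 0.19, adjusted p = 0.0654). In both, the SOX21-/- libraries were below the wild-type ones, and the difference between paralogs was not tested.

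**Figure D2:**
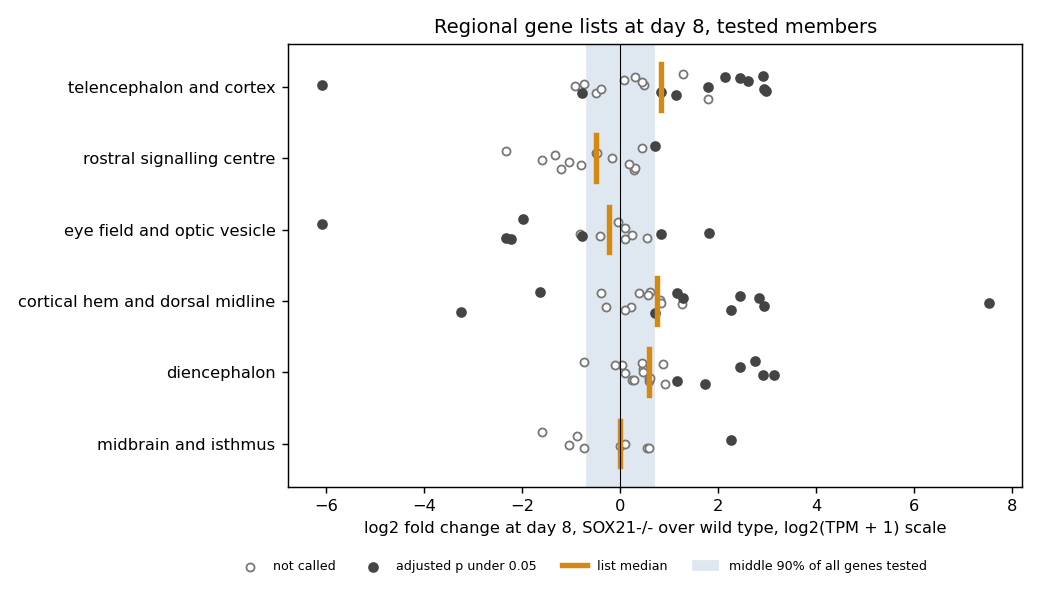
Log2 fold change at day 8, SOX21-/- over wild type, of each tested member of 6 regional lists (horizontal axis, log2(TPM + 1) scale); filled points had an adjusted p under 0.05, the bar is the list's median and the band holds the middle 90% of all genes tested. The medians of the telencephalon, hem and diencephalon lists are at 0.83, 0.76 and 0.59, against -0.49 for the rostral signalling centre and -0.23 for the eye field, and a gene in 2 lists is drawn in each.

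Of 22 eye field genes, 14 were tested, 5 fell, 2 rose and 7 were not called, with a median log2 fold change of -0.23. SIX3, a homeobox repressor of WNT genes that mice need for a forebrain and eyes, was at 14.2 TPM in S13 and 9.18 TPM in S23, against 53.6 TPM in WT1 and 69.7 TPM in WT2 (-2.32, SE 0.21, limma adjusted p = 0.000836). VAX1 and VAX2, related homeobox genes of the ventral optic vesicle, were low in all libraries. VAX2 was at 0.173 TPM and listed at 0 in SOX21-/-, against 3.78 and 4.36 TPM in wild type (-2.22, SE 0.30, adjusted p = 0.00496). VAX1 was at 0.399 and 0.0449 TPM in SOX21-/- against 2.97 and 4.74 TPM in wild type (-1.98, SE 0.32, adjusted p = 0.0125). LHX2, a LIM homeobox gene of both cortex and eye, fell by less, at 68.7 and 51.3 TPM in SOX21-/- against 99.9 and 104 TPM in wild type (-0.77, SE 0.17, adjusted p = 0.0388). RAX, the earliest marker of the eye field, was at 23.4 and 13.9 TPM in SOX21-/- and 42.4 and 24.7 TPM in wild type (-0.81, SE 0.29, adjusted p = 0.152), so that its nearest libraries were close together and it was not called. SIX6, a later optic gene, was under 0.11 TPM in S13 and S23 and listed at 0 in WT1 and WT2. ALDH1A1, a retinaldehyde dehydrogenase of the dorsal retina, rose but was low throughout, with 3.61 and 1.80 TPM in SOX21-/- against 0.0531 TPM and a listed 0 in wild type (1.81, SE 0.32, adjusted p = 0.0187).

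The cortical hem and dorsal midline list had 29 genes, of which 20 were tested, 8 rose and 2 fell, with a median log2 fold change of 0.76. Besides WNT8B and DMRT3, RSPO2, a secreted protein that strengthens WNT signalling, was at 6.46 TPM in S13 and 24 TPM in S23, against 1.34 TPM in WT1 and 0.577 TPM in WT2 (2.83, SE 0.59, limma adjusted p = 0.0313). LMX1A, the LIM homeobox gene of the roof plate and hem, was at 7.10 and 2.69 TPM in SOX21-/- against 0.182 and 0.112 TPM in wild type (2.25, SE 0.50, adjusted p = 0.0393). WNT2B, another ligand of the hem, was at 7.18 and 10.3 TPM in SOX21-/- against 2.78 and 3.97 TPM in wild type (1.15, SE 0.26, adjusted p = 0.0394). BAMBI, a decoy receptor for BMP and activin, was at 3.43 and 3.33 TPM in SOX21-/- against 0.884 and 0.721 TPM in wild type (1.28, SE 0.24, adjusted p = 0.0236). The genotypes did not overlap in any of these, as in every gene called, and the SOX21-/- libraries differed most from each other in RSPO2 and LMX1A.

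Zinc fingers of the ZIC family, which mark the dorsal neural tube and the rostral midline, were divided. ZIC5 rose, at 21.1 TPM in S13 and 18.4 TPM in S23 against 12.4 TPM in WT1 and 11 TPM in WT2 (log2 fold change 0.71, SE 0.14, limma adjusted p = 0.0297). ZIC1 fell, at 7.91 and 0.977 TPM in SOX21-/- against 26.8 and 55.5 TPM in wild type (-3.24, SE 0.63, adjusted p = 0.0251), and so did ZIC4, its neighbour on chromosome 3, at 4.04 and 2.53 TPM in SOX21-/- against 9.33 and 15.8 TPM in wild type (-1.64, SE 0.31, adjusted p = 0.0245). ZIC2 was at 135 and 146 TPM in SOX21-/- and 104 and 111 TPM in wild type and was not called (0.37, adjusted p = 0.125). TTR, a choroid plexus product, was listed at 0 in all 4 libraries.

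Of 30 diencephalon genes, 20 were tested, 6 rose and none fell, with a median log2 fold change of 0.59. LHX5, a LIM homeobox gene of the diencephalon and hem, was at 141 TPM in S13 and 205 TPM in S23, against 32.2 TPM in WT1 and 28.5 TPM in WT2 (2.45, SE 0.23, limma adjusted p = 0.000984). NR2F2, a nuclear receptor of the caudal forebrain and caudal cortex, was at 99.4 and 120 TPM in SOX21-/- against 34.5 and 29.7 TPM in wild type (1.74, SE 0.18, adjusted p = 0.0018). FOXB1, of the developing thalamus and mammillary region in mice, was at 5.35 and 9.96 TPM in SOX21-/- against 0.324 and 0.161 TPM in wild type (2.75, SE 0.36, adjusted p = 0.0049). In these 3 genes the gap between the genotypes was wider than the gap within either. BARHL1, a homeobox gene of the diencephalon and hindbrain, was at 13.8 and 5.13 TPM in SOX21-/-, against 0.159 TPM and a listed 0 in wild type (3.15, SE 0.45, adjusted p = 0.00664). IRX3, of the caudal diencephalon and further back in chick, was at 8.20 and 7 TPM in SOX21-/- against 2.01 and 3.92 TPM in wild type (1.16, SE 0.27, adjusted p = 0.0478). NR2F1, the paralog of NR2F2, was higher in level in both genotypes, at 176 and 179 TPM in SOX21-/- and 125 and 112 TPM in wild type, and was not called (0.58, SE 0.15, adjusted p = 0.0645).

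Few genes of the more caudal lists were called, and many were under 1 TPM in all 4 libraries. Of 18 midbrain and isthmus genes, 8 were under 1 TPM in all 4 libraries and 9 were tested, of which LMX1A was the 1 that rose, with none that fell. The list also holds OTX2, FGF8 and SPRY1, which are genes of the forebrain as well and were at 19.3 TPM or more in every day 8 library. PAX2, of the isthmus and optic stalk, was at 1.32 and 0.438 TPM in SOX21-/- against 0.0401 and 0.508 TPM in wild type. Its day 4 levels were 39.7 and 19.2 TPM in SOX21-/- against 15.2 and 21.7 TPM in wild type. EN1 was listed at 0 in S13 and S23 and was at 0.0329 TPM and a listed 0 in wild type, and EN2 was at 0 and 0.232 TPM in SOX21-/- against 0.0550 and 0.0272 TPM in wild type; both mark the midbrain and hindbrain boundary. Of 27 hindbrain and spinal cord genes, 2 were tested and none was called. The 17 HOX genes of that list, which mark hindbrain and spinal cord by position, reached at most 0.402 TPM in SOX21-/- libraries and 1.09 TPM in wild-type libraries. At the ventral side, 3 of 26 genes of the ventral forebrain and hypothalamus were tested and none was called (median log2 fold change -0.81). In these 3, RAX, FEZF1 and DLX5, both SOX21-/- libraries were below both wild-type libraries, as for 27.4% of all genes. SHH, the ventralising signal, was at most 0.110 TPM in SOX21-/- and 0.0212 TPM in wild type, and NKX2-1, a ventral forebrain marker, at most 0.191 TPM in SOX21-/- and 0.459 TPM in wild type.

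The rostral signalling centre list holds FGF8, genes that respond to it and secreted WNT antagonists. Of 14 tested members, 1 rose and none fell, with a median log2 fold change of -0.49. The 1 that rose was SFRP1, a secreted WNT-binding antagonist, at 474 TPM in S13 and 613 TPM in S23 against 320 TPM in WT1 and 335 TPM in WT2 (0.72, SE 0.16, limma adjusted p = 0.0394). FGF8 itself was at 23.8 and 19.3 TPM in SOX21-/-, against 60.6 and 73.4 TPM in wild type, with the genotypes apart. It was not called in the fit of days 4 and 8 (-1.59, SE 0.48, adjusted p = 0.1003), but was with only the 4 day 8 libraries (adjusted p = 0.00366), and the S23 library of day 4 was at 9.26 TPM, against 38.2 TPM in S13 of that day.

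SPRY1, SPRY2 and SPRY4, which encode feedback inhibitors of FGF signalling, had the same arrangement as FGF8. SPRY4 was at 6.18 TPM in S13 and 2.36 TPM in S23, against 19.5 TPM in WT1 and 28.9 TPM in WT2 (log2 fold change -2.33, SE 0.66, limma adjusted p = 0.0825, and 0.0192 with only the day 8 libraries). SPRY2 was at 33.4 and 26.3 TPM in SOX21-/- against 68.1 and 70.7 TPM in wild type (-1.20, SE 0.37, adjusted p = 0.101, and 0.00826). SPRY1 was at 49.4 and 39.9 TPM in SOX21-/- against 90.3 and 94.1 TPM in wild type (-1.04, SE 0.31, adjusted p = 0.101, and 0.00978). In each, both SOX21-/- libraries were below both wild-type libraries. Of the further ERK response genes DUSP6, ETV4 and ETV5, none of which was called, ETV4 had the same arrangement. DUSP6 overlapped between the genotypes, and ETV5 was higher in both SOX21-/- libraries. DUSP6 was at 16.4 and 6.89 TPM in SOX21-/- against 18.03 and 13.3 TPM in wild type. ETV4 was at 26.4 and 20.7 TPM in SOX21-/- against 29.6 and 37.0 TPM in wild type, and ETV5 at 52.7 and 49.4 TPM in SOX21-/- against 38.9 and 43.6 TPM in wild type, and adjusted p for these 3 genes ran from 0.68 to 0.756 in limma.

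Of the 4 FGF receptor genes, 3 rose. FGFR2 was at 132 TPM in S13 and 180 TPM in S23, against 15.5 TPM in WT1 and 7.31 TPM in WT2 (log2 fold change 3.73, SE 0.30, limma adjusted p = 0.000433). FGFR3 was at 37.7 and 33.6 TPM in SOX21-/- against 16.4 and 18.7 TPM in wild type (0.98, SE 0.14, adjusted p = 0.00601), and FGFR1, the receptor with the highest level, at 517 and 667 TPM in SOX21-/- against 387 and 329 TPM in wild type (0.72, SE 0.14, adjusted p = 0.0266). FGFR4 was at 14.2 and 25.6 TPM in SOX21-/- against 17.98 and 17.2 TPM in wild type, with overlapping genotypes. In the list of 17 FGF receptor and ERK feedback genes, all tested, these 3 receptors were the ones called, and the median log2 fold change was -0.38.

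**Figure D3:**
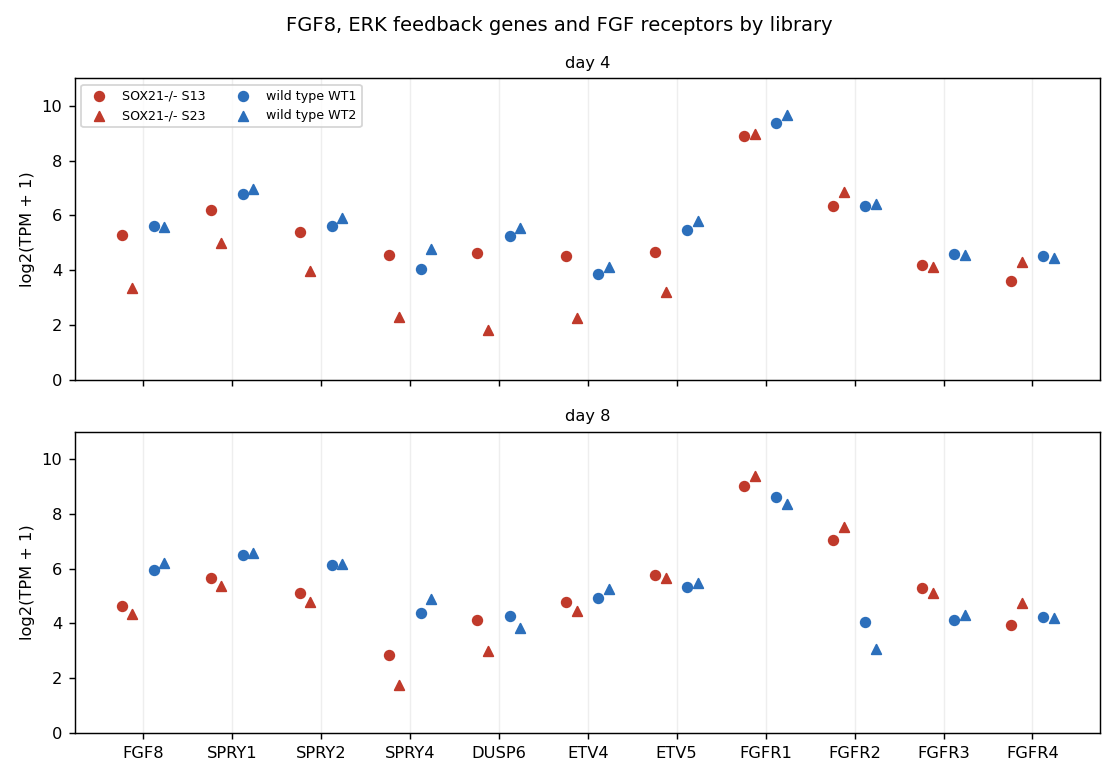
FGF8, its feedback and response genes and the 4 FGF receptor genes at day 4 (upper panel) and day 8 (lower panel), each point 1 library, on the log2(rescaled TPM + 1) axis; red is SOX21-/- and blue wild type. At day 8 the SOX21-/- points of FGF8, SPRY1, SPRY2 and SPRY4 lie under the wild-type points and those of FGFR1, FGFR2 and FGFR3 above them, and at day 4 S23 is the lowest library for FGF8, at 9.26 TPM.

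In the WNT pathway, the ligands WNT8B and WNT2B and the carrier WLS rose, while the receptor genes FZD5, FZD8 and LGR4 fell and the receptor gene ROR1 rose. WLS, the carrier that brings WNT ligands to the plasma membrane, was at 683 TPM in S13 and 783 TPM in S23, against 32.4 TPM in WT1 and 18.04 TPM in WT2 (log2 fold change 4.86, SE 0.24, limma adjusted p = 4.7e-05). Of 11 tested ligand and secretion genes, WNT8B, WLS and WNT2B rose and none fell (median 0.29). Of 31 tested receptors and antagonists, 3 rose and 3 fell (median 0.01). FZD5, a frizzled receptor of the eye field, was at 15.9 and 9.70 TPM in SOX21-/- against 203 and 240 TPM in wild type (-4.04, SE 0.21, adjusted p = 4.95e-05). FZD8, a frizzled receptor of the rostral forebrain in mice, was at 2.83 and 2.31 TPM in SOX21-/- against 29.2 and 38.8 TPM in wild type (-3.28, SE 0.22, adjusted p = 0.00016). Both genes had the genotypes far apart. LGR4, a receptor for R-spondins, was at 39.3 and 61.0 TPM in SOX21-/- against 103 and 99.2 TPM in wild type (-1.03, SE 0.18, adjusted p = 0.017). ROR1, a receptor tyrosine kinase that binds WNT ligands, was at 25.2 and 25.4 TPM in SOX21-/- against 13.7 and 10.9 TPM in wild type (0.99, SE 0.15, adjusted p = 0.00798). No other frizzled gene was called: FZD2, at 198 and 221 TPM in SOX21-/- against 189 and 176 TPM in wild type, and FZD7, at 102 and 94.0 TPM in SOX21-/- against 107 and 94.8 TPM in wild type, were among them (adjusted p = 0.352 and 0.851).

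Targets of canonical WNT signalling and the TCF factors, which share 1 list, were mixed. Of 20 tested, BAMBI, TNFRSF19 and CCND1 rose and MYC and TCF7L1 fell (median 0.19). TNFRSF19 was at 8.63 TPM in S13 and 9.36 TPM in S23, against 4.09 TPM in WT1 and 2.75 TPM in WT2 (log2 fold change 1.19, SE 0.25, limma adjusted p = 0.0331). CCND1, a cyclin, was at 192 and 152 TPM in SOX21-/- against 102 and 99.3 TPM in wild type (0.76, SE 0.14, adjusted p = 0.0218). MYC was at 12.8 and 7.63 TPM in SOX21-/- against 22.5 and 23.2 TPM in wild type (-1.13, SE 0.23, adjusted p = 0.0318). AXIN2, a feedback inhibitor often used as a readout of the pathway, was at 20.5 and 21.0 TPM in SOX21-/- and at 24.6 and 13.9 TPM in wild type, with the SOX21-/- libraries between the wild-type ones (0.16, SE 0.26, adjusted p = 0.783). LEF1, a nuclear partner of beta-catenin, was at 31.8 and 20.6 TPM in SOX21-/- against 31.96 and 33.2 TPM in wild type (-0.34, SE 0.20, adjusted p = 0.387). TCF7L1, a TCF repressor, fell, at 25.3 and 21.4 TPM in SOX21-/- against 41.6 and 39.9 TPM in wild type (-0.78, SE 0.13, adjusted p = 0.0157).

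In the BMP list 4 of 20 tested genes rose, namely FST, ID4, BAMBI and SMAD6, and none fell (median 0.62). FST, which binds activin and BMP, was at 36.0 TPM in S13 and 33.3 TPM in S23, against 6.17 TPM in WT1 and 5.16 TPM in WT2 (log2 fold change 2.42, SE 0.20, limma adjusted p = 0.000564), and ID4 at 174 and 191 TPM in SOX21-/- against 78.5 and 64.5 TPM in wild type (1.34, SE 0.15, adjusted p = 0.00232). Some BMP ligand and early response genes instead set S13 apart from S23. Others did not, such as ID4, BAMBI and the ligand BMP6, at 0.912 TPM in S13 and 0.837 TPM in S23. ID1 was at 66.2 TPM in S13 and 6.02 TPM in S23, against 9.67 TPM in WT1 and 8.05 TPM in WT2, and ID3 at 84.2 TPM in S13 and 9.82 TPM in S23 against 19.4 and 18.1 TPM in wild type. GDF7, a roof plate ligand, was at 4.61 TPM in S13 and 0.0836 TPM in S23, against 0.0685 TPM in WT1 and 0.110 TPM in WT2. These differences are between 2 libraries of 1 genotype and have no test.

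That split between S13 and S23 touched many regional genes. Of the 86 tested, 16 were over 2-fold higher in S13 than in S23 and 1, RSPO2, over 2-fold lower (19.8%), against 2.75% of all genes, and WT1 and WT2 were that far apart for 4.65% of the regional genes and 2.45% of all. The dorsal genes BMP4, at 8.87 TPM in S13 and 2.56 TPM in S23 and 1.45 TPM in WT1 and 3.62 TPM in WT2, and BMP7, at 46.2 TPM in S13 and 20.8 TPM in S23 against 19.96 and 20.1 TPM in wild type, were among them. So were PAX3, a dorsal neural tube gene, at 13.8 TPM in S13 and 2.06 TPM in S23 against 5.23 and 2.19 TPM in wild type, and RSPO3, at 3.72 TPM in S13 and 0.473 TPM in S23 against 0.113 and 0.0790 TPM in wild type. LMX1A and BARHL1 were over 2-fold higher in S13 as well, yet both SOX21-/- libraries stayed above both wild-type libraries for these 2 genes. Leaving out S13 of day 8 ended the call for LMX1A, but so did leaving out S23 of day 8 or any wild-type library of days 4 and 8. Without either S13 or S23 of day 8, BARHL1 was under the filter on low values and was not tested.

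Among SOX family genes, 2 of 13 tested rose and none fell, beside 5.2% called over all genes. SOX14, a relative of SOX21 in the same subgroup, was at 3.93 TPM in S13 and 5.96 TPM in S23 and listed at 0 in WT1 and WT2 (adjusted p = 0.0024 with limma). Like NEUROD4 among the neuronal markers, it passed the filter on low values only through S13 and S23 of day 8, so that a difference was built into its being tested. SOX13 was at 151 and 153 TPM in SOX21-/-, against 41.3 and 45.8 TPM in wild type (log2 fold change 1.78, SE 0.12, adjusted p = 0.00016). SOX1, an early neural marker, was at 36.5 and 55.2 TPM in SOX21-/- and 16.5 and 16.0 TPM in wild type and was not called (1.41, SE 0.49, adjusted p = 0.136), though it was with only the day 8 libraries (adjusted p = 0.0148).

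Progenitor genes were well expressed in both genotypes: of 29, all tested, 6 rose and 1 fell, with a median log2 fold change of 0.33. The rises were in PLAGL1, an imprinted zinc finger gene (2.02), TPBG, a membrane glycoprotein that restrains WNT signalling in zebrafish (1.97), HES4 (1.15), the RNA-binding gene MSI1 (1.05), POU3F2 (0.87) and PAX6, and PROM1 fell by 1.21 on the log2 scale. Limma adjusted p for these ran from 0.00016 for TPBG to 0.0498 for PAX6. PLAGL1 was at 126 TPM in S13 and 126 TPM in S23, against 32.2 TPM in WT1 and 28.7 TPM in WT2, and TPBG at 701 and 680 TPM in SOX21-/- against 201 and 152 TPM in wild type. Both stood far outside the wild-type range.

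Of the neuronal markers called, 3 fell and 1 rose. DCX, a microtubule protein of young migrating neurons, was at 5.70 TPM in S13 and 2.497 TPM in S23, against 24.1 TPM in WT1 and 30.8 TPM in WT2 (log2 fold change -2.55, SE 0.29, limma adjusted p = 0.00252). STMN2 (-0.91) and TUBB3 (-0.76), cytoskeletal genes of neurons, fell as well (adjusted p = 0.0362 and 0.0495), with TUBB3 just inside the threshold. NEUROD4, a proneural factor, was at 7.80 and 3.76 TPM in SOX21-/- against 0.257 TPM and a listed 0 in wild type (2.53, SE 0.34, adjusted p = 0.00551). It passed the filter on low values only through S13 and S23 of day 8, so that a difference was built into its being tested. Of 14 neuronal markers tested, these were the 4 called, and the summed level of the whole list was 409.9 and 294 TPM in SOX21-/- libraries and 499 and 509 TPM in wild-type libraries. The part of these cells in the regional differences was not tested.

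Of 34 tested markers of other cell types, neurons aside, 3 were called (8.82%, against 5.2% of all genes). None of 8 tested pluripotency genes and none of 7 tested surface ectoderm genes was called, nor any of 7 of mesenchyme and endothelium. For neural crest, NGFR fell (-0.68, limma adjusted p = 0.0457) among 8 tested, the list summed to 239 TPM in S13 and 327 TPM in S23 and 286 TPM in WT1 and 284 TPM in WT2, and its defining gene SOX10 was at or below 0.865 TPM in SOX21-/- and 0.180 TPM in wild type. For mesendoderm, CXCR4, which progenitors also express, rose, at 105 and 130 TPM in SOX21-/- against 35.0 and 34.2 TPM in wild type (1.73, adjusted p = 0.00512), and GSC fell, at 2.66 and 0.821 TPM in SOX21-/- against 5.78 and 6.59 TPM in wild type (-1.47, adjusted p = 0.0394). SOX17, FOXA2 and HAND1, defining genes of that list, were listed at 0 in all 4 libraries.

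Beyond the lists, the largest rises at day 8 included HES3, a HES-family repressor of neural progenitors, at 51.4 TPM in S13 and 86.7 TPM in S23 against 1.42 TPM in WT1 and 1.30 TPM in WT2 (log2 fold change 4.84, SE 0.26, limma adjusted p = 5.19e-05). GCNT1, a glycosyltransferase (4.09), TMEM132C (3.65), the dopamine receptor DRD4 (3.00), MTUS1 (2.96), CFAP77 (2.88) and FRAT2, a GSK3-binding activator of WNT signalling (2.93), rose as well, with adjusted p from 0.000162 for TMEM132C to 0.00512 for CFAP77. FRAT2 was at 35.2 and 55.7 TPM in SOX21-/- libraries, against 5.32 and 4.59 TPM in wild-type libraries. In each of these genes both SOX21-/- libraries were above both wild-type libraries, as the rule for naming them required.

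Large falls outside the lists included PKDCC, a secreted tyrosine kinase, at 10.0 TPM in S13 and 5.98 TPM in S23 against 217 TPM in WT1 and 270 TPM in WT2 (log2 fold change -4.79, SE 0.21, limma adjusted p = 2.74e-05). DLK1, an imprinted gene for a NOTCH-like ligand, was at 392 and 134 TPM in SOX21-/-, against 3720.1 and 3481 TPM in wild type (-3.96, SE 0.38, adjusted p = 0.00117). DIO3, a thyroid hormone deiodinase of the same imprinted cluster on chromosome 14, was at 1.03 and 0.334 TPM in SOX21-/- against 22.5 and 26.0 TPM in wild type (-3.94, SE 0.30, adjusted p = 0.000344), and BEGAIN, next to DLK1, fell too (-3.65). Further falls were in MGST1, a membrane glutathione transferase (-3.89), SEMA5A, an axon guidance gene (-3.26), EYA4, a transcriptional coactivator (-3.05), MPPED1 (-3.00), CAPN6 (-2.95), FBLN1, an extracellular matrix protein (-2.86), and ADCYAP1R1, the PACAP receptor (-2.85). Their adjusted p ran from 1.68e-05 for MGST1 to 0.00156 for ADCYAP1R1.

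Day 4 shows how much of the day 8 pattern was already there. At day 4, 406 of the genes tested were called (2.85%), 78 higher (0.547%) and 328 lower (2.3%) in SOX21-/- cells, with a median log2 fold change of all genes of -0.12. That split followed the scaling, with 94 higher and 53 lower after median-of-ratios scaling and 57 and 47 after quantile normalization, added after seeing the data, and without S23 of day 4 it was 98 and 633. Of the 86 regional genes, 17 were called at day 4 and 29 at day 8, and 10 were called in the same direction on both days, which is 58.8% of the day 4 calls and 34.5% of the day 8 calls. Over all genes, 76 were called in the same direction on both days, or 18.7% of the day 4 and 10.3% of the day 8 calls, and 23 in opposite directions. The 10 regional genes were WNT8B, RSPO2, EMX2, OTX1, FEZF2, DMRTA1, LHX5 and FOXB1, which were higher, and SIX3 and LHX2, which were lower. The libraries of the 2 days carry the same line labels, so they may not be independent.

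**Figure D4:**
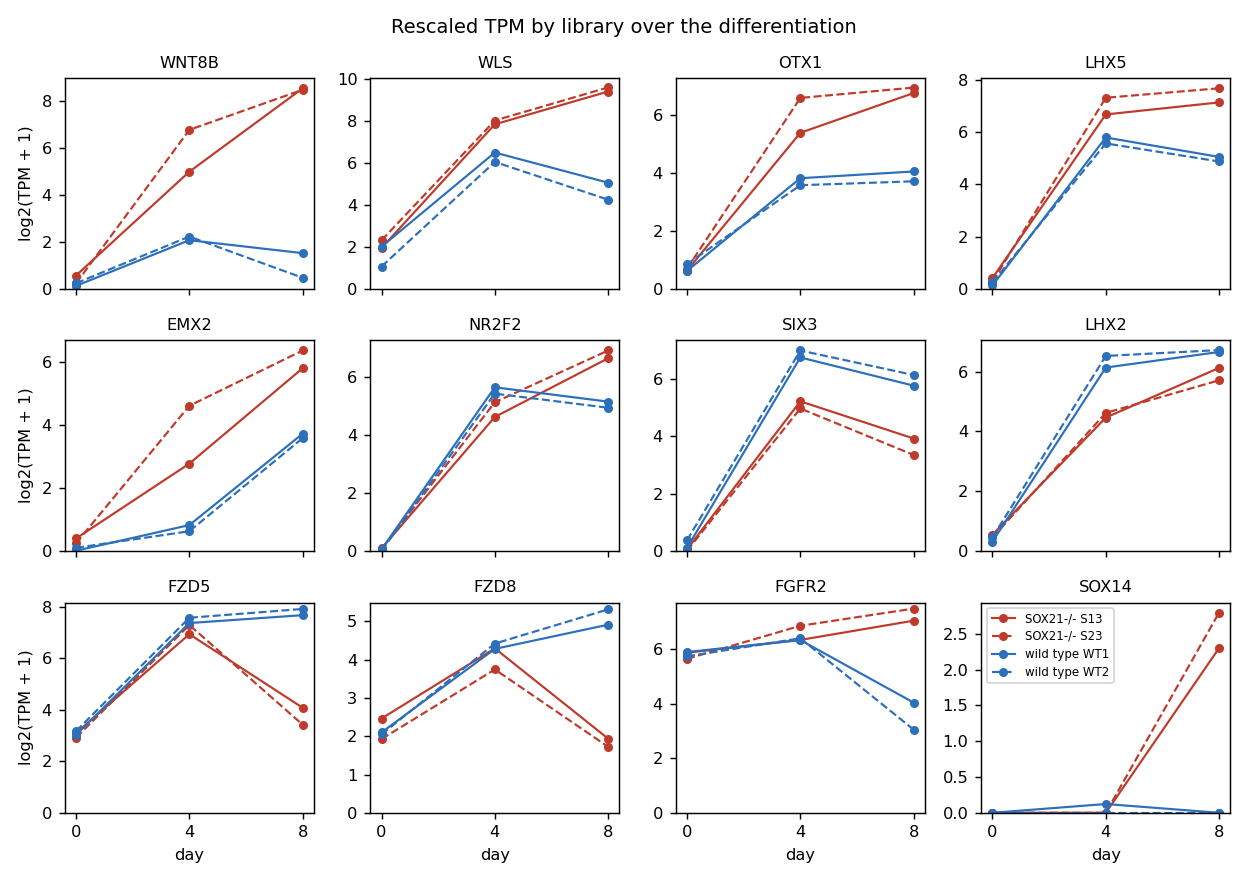
Level of 12 genes over days 0, 4 and 8, 1 line per library label, on the log2(rescaled TPM + 1) axis; red is SOX21-/- and blue wild type, and the points joined are separate libraries. WNT8B, WLS, OTX1, LHX5, EMX2, SIX3 and LHX2 are apart by day 4 in the direction of day 8. FZD5 is narrowly apart at day 4 and far apart at day 8. FZD8, FGFR2, NR2F2 and SOX14 separate or turn over between days 4 and 8.

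Between the days, day 8 minus day 4, the genotype effect differed for 329 of all genes tested (2.31%), with 259 positive (1.82%) and 70 negative (0.491%) differences, and for 7 of the 29 regional genes called at day 8 (24.1%), beside 195 of the 741 genes called at day 8 in all (26.3%). That count moved by over 1.5 times without any 1 of the 8 libraries (19 to 708, the highest without S23 of day 4), and its split was 127 to 106 with median-of-ratios scaling. For EMX2 the day 4 levels were 5.84 TPM in S13 and 23.5 TPM in S23, against 0.762 TPM in WT1 and 0.538 TPM in WT2 (log2 fold change 2.98, SE 0.49, limma adjusted p = 0.0282), and those of SIX3 were 36.3 and 30.4 TPM in SOX21-/-, against 107 and 127 TPM in wild type (-1.78, SE 0.21, adjusted p = 0.0139). In neither was the change of the genotype effect between the days called (-0.54, SE 0.69, adjusted p = 0.706 for EMX2 and -0.54, SE 0.30, adjusted p = 0.338 for SIX3). NR2F2 was instead at 23.6 and 34.0 TPM in SOX21-/- and 49.1 and 42.1 TPM in wild type at day 4 (-0.66, adjusted p = 0.0867), and its genotype effect was 2.40 greater at day 8 (SE 0.26, adjusted p = 0.00603). FZD5, at 121 and 155 TPM in SOX21-/- against 164 and 189 TPM in wild type at day 4, and FGFR2, at 80.6 and 116 TPM in SOX21-/- against 80.3 and 84.1 TPM in wild type, had genotype effects that differed between the days, day 8 minus day 4, by -3.69 (adjusted p = 0.00198) and 3.496 (adjusted p = 0.01). Between the days FZD5 was lower at day 8 in both SOX21-/- libraries and higher in both wild-type ones, and FGFR2 was higher at day 8 in both SOX21-/- libraries and lower in both wild-type ones.

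Genes called at day 4 and not at day 8 included RAX, DBX1 and IRX1. RAX was at 29.1 TPM in S13 and 39.3 TPM in S23 at day 4, against 120 TPM in WT1 and 139 TPM in WT2 (log2 fold change -1.90, SE 0.29, limma adjusted p = 0.021). DBX1, a homeobox gene of the diencephalon, was at 128 and 199 TPM in SOX21-/- against 21.0 and 17.9 TPM in wild type (2.98, SE 0.27, adjusted p = 0.00463), and at day 8 at 14.5 and 10.6 TPM in SOX21-/- against 7.88 and 4.73 TPM in wild type. Its genotype effect differed between the days, day 8 minus day 4, by -2.07 (SE 0.38, adjusted p = 0.0352). IRX1 was at 38.2 and 27.4 TPM in SOX21-/- against 7.52 and 5.80 TPM in wild type at day 4 (2.13, SE 0.26, adjusted p = 0.016), and the change of its effect by day 8 was not called (-1.26, adjusted p = 0.103).

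The regional calls rest on 2 libraries per genotype. Of the 27 followed one by one, WNT8B, OTX1, DMRT3, DMRTA1, DACH1, SIX3, LHX5, FOXB1 and NR2F2 were called under every alternative they entered. Other calls ended when 1 library was left out. Those of BARHL1, VAX2, EMX2, FEZF2, PAX6, LHX2, ALDH1A1, ZIC1 and ZIC4 were among the ones that ended without WT2 of day 8. Calls also ended without S23, WT1 or S13 of that day. The fit takes its spread from days 4 and 8 together. Without either wild-type library of day 4, the calls of RSPO2, ZIC1, EMX2, FEZF2, PAX6, LMX1A, WNT2B, ZIC5, IRX3 and SFRP1 ended. No regional call ended without a SOX21-/- library of day 4.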

How the data were processed

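Poly(A) RNA of 12 libraries was sequenced; the authors deposited TPM per gene, made with CASAVA 1.7 and Salmon 0.8.2 on hg38 (per the submitters' processing notes). Strand use, the annotation release and the sequencer of each library are not given in the sources used here; overlapping and antisense genes are therefore uncertain. TPM of the 19804 nuclear protein-coding rows (of 58219 identifiers) was rescaled to 1000000 per library. Locations came from GENCODE v29.

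Genes at 1 TPM or more in at least 2 of the 8 libraries of days 4 and 8 (14253) were fitted with limma 3.58.1 (R 4.3.3) on log2(TPM + 1), the pseudocount being 1: a mean per group, 4 residual degrees of freedom, variances moderated with a trend, two-sided tests and Benjamini-Hochberg adjustment at 0.05. The fit was tested on simulated data. An exact 0 can be a failed estimate.

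Members and lists were chosen with earlier results of these data known. Beyond SOX21, WNT8B and list members, the 15 largest called changes each way were named, where the higher group averaged at least 5 TPM and the genotypes did not overlap. NR2F1, IRX1, DBX1 and the other uncalled genes are list members, and genes that set S13 apart from S23 were described after their values were seen. Certain genes that this rule would name are not reported here. Alternatives covered the pseudocount, filter, scaling, gene types, libraries fitted, moderation, the replicate block and leaving out each library.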

Additional observations from a re-analysis of the deposited data

Results flagged for a closer look

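The genotype effect of 40 genes named or followed in the report differed between days 8 and 4, by the interaction contrast of limma (adjusted p = 0.000413 to 0.0475, 2 libraries per genotype and day). The values in parentheses are log2 differences of the effect, day 8 minus day 4.

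Among the regional genes named, with WNT8B and TCF7L2 given below among signalling genes, these were DMRT3 (2.80), NR2F2 (2.40), DACH1 (1.39), NR2F1 (1.31), ZIC5 (1.08), ZIC2 (0.92), DBX1 (-2.07) and VAX1 (-2.36). DBX1 had its larger effect at day 4, and NR2F2, DACH1, NR2F1, ZIC5 and ZIC2 had effects of opposite sign on the 2 days, below wild type at day 4 and above it at day 8, as had TCF7L2 (-0.69 and 0.62). VAX1 had no called difference at day 4 (0.38) and fell at day 8 (-1.98). For NR2F1, ZIC2 and TCF7L2 the day 8 effect on its own was not called. Of NR2F2, DACH1, NR2F1, ZIC5, ZIC2 and TCF7L2 only NR2F1 was called at day 4 (limma adjusted p = 0.0463).

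Among signalling genes they were WNT8B (3.79), FGFR2 (3.496), WLS (3.20), FRAT2 (2.31), ID4 (2.16), DHRS3 (1.82), FST (1.65), FGFR3 (1.41), FGFR1 (1.31), TCF7L2 (1.31), FZD8 (-2.95) and FZD5 (-3.69). The receptors FZD5 and FZD8 changed in the negative direction while the FGF receptors and the carrier WLS changed in the positive one.

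Among SOX, progenitor and other cell type genes they were HES3 (4.33), SOX14 (2.61), NEUROD4 (2.55), TPBG (1.34), MSI1 (1.32), SOX13 (1.30), PLAGL1 (1.01) and GSC (-3.32). SOX14 and NEUROD4, like VAX1 above, passed the filter on low values only through the day 8 libraries of the genotype in which they were higher. A difference between the days was thus built into the testing of these genes. GSC was higher in SOX21-/- cells at day 4 (1.84, adjusted p = 0.0333) and lower at day 8 (-1.47, adjusted p = 0.0394).

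Other genes were MTUS1 (2.75), DRD4 (2.52), MPPED1 (-2.04), CAPN6 (-2.13), BEGAIN (-2.31), SEMA5A (-2.43), FBLN1 (-2.94), DLK1 (-2.99), MGST1 (-3.503), ADCYAP1R1 (-3.81), DIO3 (-4.05) and PKDCC (-5.03). DIO3 was at 1.40 TPM in S13 and 0.550 TPM in S23, against 0.891 TPM in WT1 and 0.672 TPM in WT2 at day 4, and at day 8 at 1.03 and 0.334 TPM in SOX21-/- against 22.5 and 26.0 TPM in wild type, so that its level was higher at day 8 in both wild-type libraries and in neither SOX21-/- library.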

How the results depend on the processing

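The 741 genes called at day 8, the 29 regional genes among them and the 329 genes whose effect differed between days 8 and 4 (259 positive and 70 negative) moved with several choices. With no filter the counts were 470, 20 and 96; with all gene types as deposited 312, 13 and 45; and with moderation without the trend 493, 19 and 129. Leaving out 1 library gave 148 (without WT2 of day 8) to 936 (without S23 of day 4) calls at day 8, 11 to 39 regional calls and 19 (without WT2 of day 4) to 708 (without S23 of day 4) interaction calls. The day 8 count was also 296, 357 and 175 without WT1, S13 or S23 of day 8, and 386 and 389 without WT1 or WT2 of day 4. The interaction count moved by over 1.5 times without any 1 of the 8 libraries. The labels do not say that a line label pairs libraries across days, and deviations from the group means correlated between the days at 0.215 for the SOX21-/- labels and -0.0186 for the wild-type labels; with the line label as a random replicate block the counts were 772, 28 and 774, and with a fixed replicate block 715 interaction calls. The split of the interaction calls depended on scaling: 127 positive and 106 negative under median-of-ratios scaling and 146 and 115 under quantile normalization, both of which remove the median shift of 0.11 over all genes. Of 77 called genes followed, 40 were called under every alternative they entered and all 77 kept their sign in each. As the genotypes lay apart in every gene called, leaving out a library could not change that sign. Depth is unknown from TPM, so the precision of low values cannot be given, and the cause of these shifts was not tested.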

Other observations

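Retinoid genes were mostly not called at day 8: of 13 tested, ALDH1A1 and DHRS3 rose and none fell, beside 5.2% called over all genes. ALDH1A1 passed the filter on low values only through S13 and S23 of day 8, so that a difference was built into its being tested. DHRS3, a retinaldehyde reductase, was at 3.01 TPM in S13 and 3.38 TPM in S23, against 0.691 TPM in WT1 and 0.532 TPM in WT2 (log2 fold change 1.38, SE 0.25, limma adjusted p = 0.0193). CRABP2, a retinoic acid carrier, was at 325 and 190 TPM in SOX21-/- and 484 and 537 TPM in wild type, with the genotypes apart. It was not called (limma adjusted p = 0.0801), though it was with only the day 8 libraries (adjusted p = 0.0493).

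In the hedgehog list 1 of 11 tested genes was called, beside 5.2% of all genes, and the list was not tested as a set. This gene was GLI2, an effector of the pathway, which fell, at 111 TPM in S13 and 95.6 TPM in S23 against 175 TPM in WT1 and 166 TPM in WT2 (log2 fold change -0.72, SE 0.13, limma adjusted p = 0.0164). GLI1, whose transcription rises with pathway activity, was at or below 0.0999 TPM in SOX21-/- and 0.0635 TPM in wild type. GAS1, a hedgehog co-receptor, was at 101 and 102 TPM in SOX21-/- cells, against 63.4 and 53.6 TPM in wild type. It was not called (limma adjusted p = 0.0876), though it was with only the day 8 libraries (adjusted p = 0.0172).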
